A study of Mus musculus with 8 samples.

Results

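The heat shock chaperones described here are 10 of the 24539 genes in the deposited table, and they were matched by their symbols, with no measured value in the rule. They are the inducible HSP70 genes Hspa1a and Hspa1b, the HSP40 gene Dnajb1, the HSP110 gene Hsph1, the small heat shock protein gene Hspb1, the co-chaperone gene Bag3, the constitutive HSP70 gene Hspa8, the cytosolic HSP90 genes Hsp90aa1 and Hsp90ab1, and Hspa5, whose product BiP works in the endoplasmic reticulum (ER). All 10 were found and all 10 passed the filter on low counts. They were set beside each other to judge cell stress across the study's genotypes.

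Chaperones bind unfolded stretches of other proteins and let them fold instead of clumping together. When damaged proteins pile up in the cytosol, the heat shock factor HSF1 is set free, forms trimers and switches on genes that carry heat shock elements, which are inverted repeats of the bases GAA and TTC. Damage in the ER starts the unfolded protein response, in which ATF6 and XBP1 switch on Hspa5 and its partners, many of them through the ER stress response element, a CCAAT box followed by CCACG. Constitutive chaperones such as Hspa8 and Hsp90ab1 are made at high levels in unstressed growing cells. Freeing cells from a tissue and sorting them is known to induce stress genes in many cell types, so these genes are often read as a sign of how cells were handled.

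RNA sequencing was done on nephron progenitors, the cells of the embryonic kidney that give rise to nephrons, sorted by FACS at E18.5 for the fluorescence of Six2GFPcre, whose fused GFP and Cre proteins mark them. The KO-labelled group was Smo c/c ; Six2GFPcre, with both copies of Smo conditional. The Het-labelled group was Smo c/+ ; Six2GFPcre, the WT-labelled group was Smo +/+ ; Six2GFPcre, and the SmoM2-labelled group was Rosa26 SmoM2/+ ; Smo +/+ ; Six2GFPcre, with an active form of Smo. Smo encodes the receptor-like protein by which Hedgehog signals enter the cell. Every group carried Six2GFPcre, the controls included, and Cre acts only in cells that make or once made it. Each group had 2 libraries, and the labels do not say whether these came from separate embryos. The opposite sex patterns given next place the WT-labelled pair, and the SmoM2-labelled pair, in different embryos, while for the KO- and Het-labelled pairs the spread may be technical.

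Total listed counts were 4422305 to 4442697 for KO-labelled, 5929770 to 7577590 for Het-labelled, 9396539 to 10305398 for WT-labelled and 9037109 to 9929956 for SmoM2-labelled libraries. The Smo level, in CPM (counts scaled to a common library size), was 11.1 to 13.1 for KO-labelled, 14.4 to 23.9 for Het-labelled, 363 to 375 for WT-labelled and 605 to 629 for SmoM2-labelled libraries. The Het-labelled libraries thus went against their label in Smo, and every group is named here as its libraries are labelled. Both KO-labelled libraries had the count pattern of male embryos and both Het-labelled libraries that of female embryos, while the WT- and SmoM2-labelled groups each had a library of either pattern. All 10 nephron progenitor markers examined were detected in every group. Their sum was 4173 to 4759 CPM in KO-labelled and 5143 to 5641 CPM in Het-labelled libraries. It was lower in the others, 3563 to 3941 CPM in WT-labelled and 3828 to 3871 CPM in SmoM2-labelled libraries. The markers did not all move alike. In KO against WT 3 of the 10 were called higher, where 11.6% of all tested genes rose. Gdnf alone was called lower (log2 change -0.7, edgeR quasi-likelihood test, adjusted p = 0.0308), where 11.4% fell. In Het against WT 6 were called higher and 0 lower, where 13.1% of all tested genes rose and 12.2% fell. Depth, sex pattern and genotype group therefore moved together in part, and their shares in the differences below cannot be told apart where they coincide. In bulk samples like these, fewer cells of a type and less RNA per cell also give the same reading and cannot be told apart.

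Several of these promoters hold an element of the cytosolic or of the ER pathway, so their sequences are given before the values. RefSeq promoter sequences of build GRCm38.p6, 250 bases before to 50 after each start, were matched for 7 of the 10 genes in 9 windows. The other members, Hspa8, Hsp90aa1 and Hsp90ab1, had no window and were not searched. The sequences of Hspa1a, Hspb1 and Hspa5 before the start are printed 5′ to 3′ because they hold the 2 kinds of element named above, with heat shock element matches (GAANNTTC) in the first pair and the ER stress response element in Hspa5 in capitals. For Hsph1, the member with the widest range of levels, 30 bases around each of 2 heat shock element matches are given, again with the match in capitals. The Hspa1a stretch is chr17:34972157-34972406 on the minus strand, the Hspb1 stretch chr5:135887669-135887918 on the plus strand, and the Hspa5 stretch chr2:34771840-34772089 on the plus strand. The Hsph1 stretches are chr5:149636351-149636380 before the start and chr5:149636279-149636308 after it, both on the minus strand. Hsph1 had 2 windows, and the start meant here is that of the window chr5:149636266-149636565. In RefSeq the bounds of Hsph1 reach 149636498, so the first stretch lies inside the annotated gene, though before the starts of both windows.
Hspa1a: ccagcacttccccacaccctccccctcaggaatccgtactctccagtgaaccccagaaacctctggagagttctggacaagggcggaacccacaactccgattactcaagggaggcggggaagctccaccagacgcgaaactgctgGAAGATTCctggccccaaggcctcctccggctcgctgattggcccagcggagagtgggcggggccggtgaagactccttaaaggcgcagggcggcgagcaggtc
Hspb1: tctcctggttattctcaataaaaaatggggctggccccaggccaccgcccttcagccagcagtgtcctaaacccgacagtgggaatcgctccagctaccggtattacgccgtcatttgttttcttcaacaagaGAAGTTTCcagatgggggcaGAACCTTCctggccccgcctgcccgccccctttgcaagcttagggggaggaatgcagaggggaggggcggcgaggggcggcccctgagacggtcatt
Hspa5: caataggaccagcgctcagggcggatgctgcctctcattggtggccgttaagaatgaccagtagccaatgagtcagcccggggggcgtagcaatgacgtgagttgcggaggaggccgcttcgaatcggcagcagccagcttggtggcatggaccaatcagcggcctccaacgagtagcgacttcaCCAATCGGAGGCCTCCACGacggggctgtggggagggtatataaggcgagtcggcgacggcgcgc
Hsph1, before the start: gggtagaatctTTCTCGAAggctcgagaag
Hsph1, after the start: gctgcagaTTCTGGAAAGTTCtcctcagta

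Both strands of all 32851 promoters of 300 bases in the table were searched, and positions count from 1 at the start of the transcript, with -1 the base before it. The heat shock element of 3 units, GAA, TTC and GAA with 2 free bases between neighbours, was in 0.603% of these promoters. Among the 7 members with a window it was in Hsph1 alone. There TTCTGGAAAGTTC lies at 16 to 28 from the start used above, and at 37 to 49 from the start of its other window. The shorter GAANNTTC, which the 3-unit element contains, was in 7.86% of the promoters and in 5 members: Hspa1a and Hspa1b at -104 to -97, Hspb1 at -117 to -110 and again at -97 to -90, Hsph1, and Bag3 at 43 to 50. The other pairing, TTCNNGAA, was in 8.52% of the promoters and in Hsph1 alone among the members with a window. No heat shock element of these forms was found in the windows of Dnajb1 or Hspa5. The ER stress response element, searched as CCAAT, 9 free bases and CCACG, was in 0.119% of the promoters and in Hspa5, at -65 to -47. These matches describe the letters and are not evidence of binding in these cells.

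The members covered a wide range of expression. On the length-scaled RPKM values of the authors, averaged over the 8 libraries, the order was Hsp90ab1 at 1582, Hspa8 at 299, Hspa5 at 235, Hsp90aa1 at 77.7, Dnajb1 at 23.7, Hsph1 at 14.4, Bag3 at 12.2, Hspb1 at 5.76, Hspa1b at 4.09 and Hspa1a at 1.78 RPKM. Hsp90ab1 ranked between 8 and 28 among the 24539 genes in each library. Neighbours in this order were not all separate: Hspa8 and Hspa5 overlapped between libraries, as did Dnajb1 and Hsph1, Hsph1 and Bag3, Bag3 and Hspb1, and Hspb1 and Hspa1b. The inducible HSP70 pair, the classical readout of a heat shock, was at the bottom: in every library the RPKM of the constitutive Hspa8 was 35.9 to 86.9 times the sum of those of Hspa1a and Hspa1b.

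**Figure D1:**
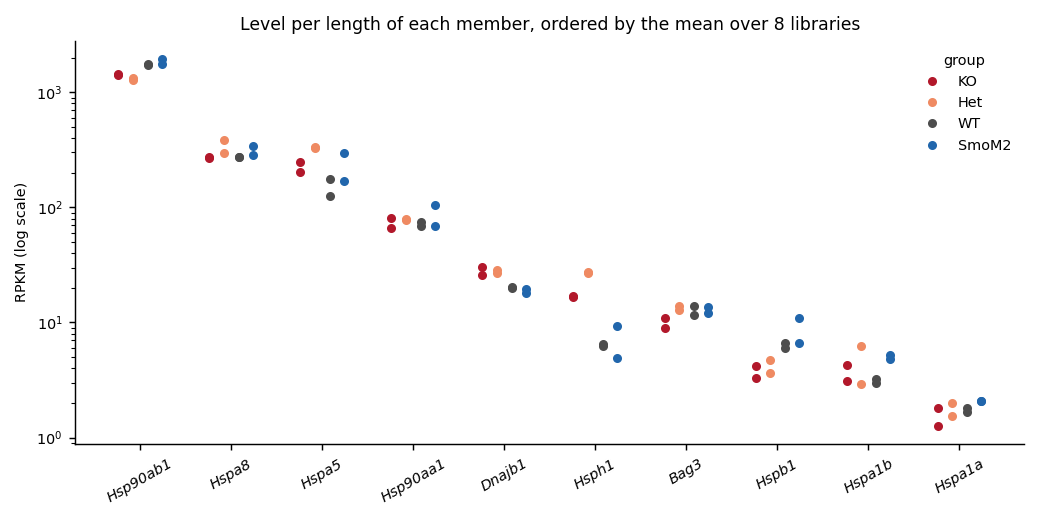
Level per length (RPKM, log axis) of each of the 10 genes in the 8 libraries, ordered by the mean over all libraries, with each point a library coloured by its labelled group. Hsp90ab1 lies between 1273 and 1943 RPKM, Hspa1a between 1.27 and 2.08, and Hsph1 is the gene whose groups spread the most.

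Hspa1a and Hspa1b encode nearly the same HSP70 protein, the chaperone that cells make in bulk after heat. The Hspa1a level was 5.98 and 4.14 CPM in KO-labelled, 5.35 and 6.96 CPM in Het-labelled, 5.97 and 5.88 CPM in WT-labelled, and 7.26 and 7.28 CPM in SmoM2-labelled libraries. The Hspa1b level was 14.2 and 10.2 CPM in KO-labelled, 10 and 21.6 CPM in Het-labelled, 10.7 and 10.5 CPM in WT-labelled libraries, and the SmoM2-labelled libraries held 166 and 160 counts, or 17.7 ± 1.07 CPM (mean ± SD, n = 2). Neither gene passed the test in any comparison, and the KO- and Het-labelled libraries overlapped the WT-labelled ones for both.

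The KO minus WT difference of Hspa1a was -0.23 on the log2 scale (95% interval -0.91 to 0.45, adjusted p = 0.623 with edgeR's quasi-likelihood test), and that of Hspa1b was 0.20 (-0.51 to 0.92, adjusted p = 0.684). Both genes were lowly counted, with 19 to 71 counts for Hspa1a and 47 to 166 for Hspa1b. The intervals are wide, so these values do not exclude a difference of any size within them. The highest SmoM2 minus WT difference among the members was that of Hspa1b, 0.74 (0.08 to 1.41, adjusted p = 0.582), which did not pass although both SmoM2-labelled libraries lay above both WT-labelled ones. Hspa1b differed by 1.09 on the log2 scale between the pair of Het-labelled libraries, the widest gap within a group of any member. Without Het-labelled replicate 1 its Het minus WT difference was 0.99 with an adjusted p of 0.0392, and without replicate 2 it was -0.10.

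The pair is hard to count apart. Both genes lie on the minus strand of chromosome 17, Hspa1a at 34969359 to 34972156 and Hspa1b at 34956429 to 34959238 (GRCm38.p6), with starts 12918 bases apart. Their 300-base promoters were equal at 296 positions, or 98.7%, and differed by C-207T, T-204C, T-2G and C26T, with the base of Hspa1a first and that of Hspa1b last. Of all 50-base stretches of the GENCODE transcripts of Hspa1a, 58.8% also occurred in Hspa1b, so reads from the pair could be assigned to either gene or dropped, and the split between them is uncertain.

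Hsph1 encodes HSP110, which helps HSP70 exchange its nucleotide and takes part in pulling apart protein clumps. It was the member that differed most. The Hsph1 level was 70.4 and 68.1 CPM in KO-labelled, 117 and 119 CPM in Het-labelled, 25.8 and 28.8 CPM in WT-labelled, and 21.7 and 40.6 CPM in SmoM2-labelled libraries. The KO- and Het-labelled libraries were all higher than every WT- and SmoM2-labelled library, and the Het-labelled ones were the highest of all.

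Hsph1 rose 4.32-fold in the Het-labelled against the WT-labelled libraries (118 ± 1.65 against 27.3 ± 2.07 CPM, mean ± SD, n = 2 each; log2 change 2.11 ± 0.22 SE, edgeR adjusted p = 0.00015). Against the same WT-labelled libraries it rose 2.54-fold in KO (69.3 ± 1.61 CPM; log2 change 1.34 ± 0.23 SE, edgeR adjusted p = 0.00237). An absolute change as large as that of Hsph1 was exceeded by 1.91% of all tested genes in the Het against WT comparison and by 6.05% in the KO against WT comparison. Both calls held in every alternative processing, with log2 changes between 1.84 and 2.19 and between 1.26 and 1.60. In the SmoM2-labelled libraries the difference was 0.19 (95% interval -0.31 to 0.68, adjusted p = 0.931), and the pair of libraries differed from each other by 0.90 on the log2 scale. Measured against Hspa8, whose RPKM was 37 to 57.1 times that of Hsph1 in the WT- and SmoM2-labelled libraries, Hsph1 was closer in the other libraries, where the ratio was 10.7 to 16.2.

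Between the KO- and Het-labelled libraries Hsph1 was the only member called in the main edgeR model, lower in the KO-labelled ones (log2 change -0.76 ± 0.22 SE, edgeR adjusted p = 0.048). This call was lost under 8 of 19 alternatives, among them leaving out any library of either group (adjusted p 0.146 to 0.18). With the sex pattern as a covariate the change was -0.24 with an adjusted p of 0.561. Other members, all lower in KO, passed in this comparison under some alternatives: Hspa5 with only the 2 groups fitted, with the replicate block and with no filter (adjusted p 0.0155, 0.0303 and 0.000121), Hspa8 with DESeq2 and with no filter (0.0384 and 0.0251), and Bag3 with no filter (0.0401).

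Dnajb1 encodes the HSP40 partner that hands clients to HSP70, and it is a classical target of HSF1. Its level was 97.9 and 114 CPM in KO-labelled, 107 and 115 CPM in Het-labelled, 78.1 and 81.9 CPM in WT-labelled, and 72.6 and 79 CPM in SmoM2-labelled libraries. The KO- and Het-labelled libraries lay above the others without overlap, by a small step. Dnajb1 rose by 0.47 ± 0.13 SE on the log2 scale in the Het-labelled (edgeR adjusted p = 0.0196) and by 0.41 ± 0.13 SE in the KO-labelled ones (edgeR adjusted p = 0.0404), each against the same WT-labelled libraries. The KO call was lost under 14 of 20 alternatives, DESeq2 among them (adjusted p = 0.0703), and the Het call under 5 of 19, each time with the same direction; among these, leaving out KO-labelled replicate 2, either Het-labelled library or either WT-labelled library, or for KO either SmoM2-labelled library, ended the call of the comparison concerned (adjusted p between 0.071 and 0.185).

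Hspb1 encodes HSP27, a small heat shock protein that holds unfolded proteins without using ATP. Its level was 4.43 and 3.48 CPM in KO-labelled, 4.01 and 5.27 CPM in Het-labelled, 6.34 and 7.62 CPM in WT-labelled, and 7.46 and 12.5 CPM in SmoM2-labelled libraries. All KO- and Het-labelled libraries lay below all others, the reverse of the split seen for Hsph1. Over the 4 groups Hspb1 differed (edgeR adjusted p = 0.0267), but neither pairwise difference from the WT-labelled libraries passed, at -0.82 ± 0.36 SE for KO (adjusted p = 0.123) and -0.60 ± 0.33 SE for Het (adjusted p = 0.213). With each library's trend over gene length removed the KO difference of Hspb1 passed (-1.16, adjusted p = 0.0387), and with length and GC trends removed both did, at -1.3 in KO (adjusted p = 0.0223) and -1.01 in Het (adjusted p = 0.0378). Its counts were low, 16 to 108 per library.

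Bag3 encodes a co-chaperone that links HSP70 to small heat shock proteins and to autophagy, and it is induced by HSF1. Its level was 27.2 and 33.1 CPM in KO-labelled, 40.9 and 44.7 CPM in Het-labelled, 42.1 and 37.7 CPM in WT-labelled, and 39.7 and 44.5 CPM in SmoM2-labelled libraries. Both KO-labelled libraries lay below the other 6, which overlapped among themselves. The differences did not pass the test, at -0.40 ± 0.16 SE against WT (adjusted p = 0.0819) and -0.50 ± 0.16 SE against Het (adjusted p = 0.0673). With the length trend removed, the KO against WT difference of Bag3 passed (-0.50, adjusted p = 0.0491).

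**Figure D2:**
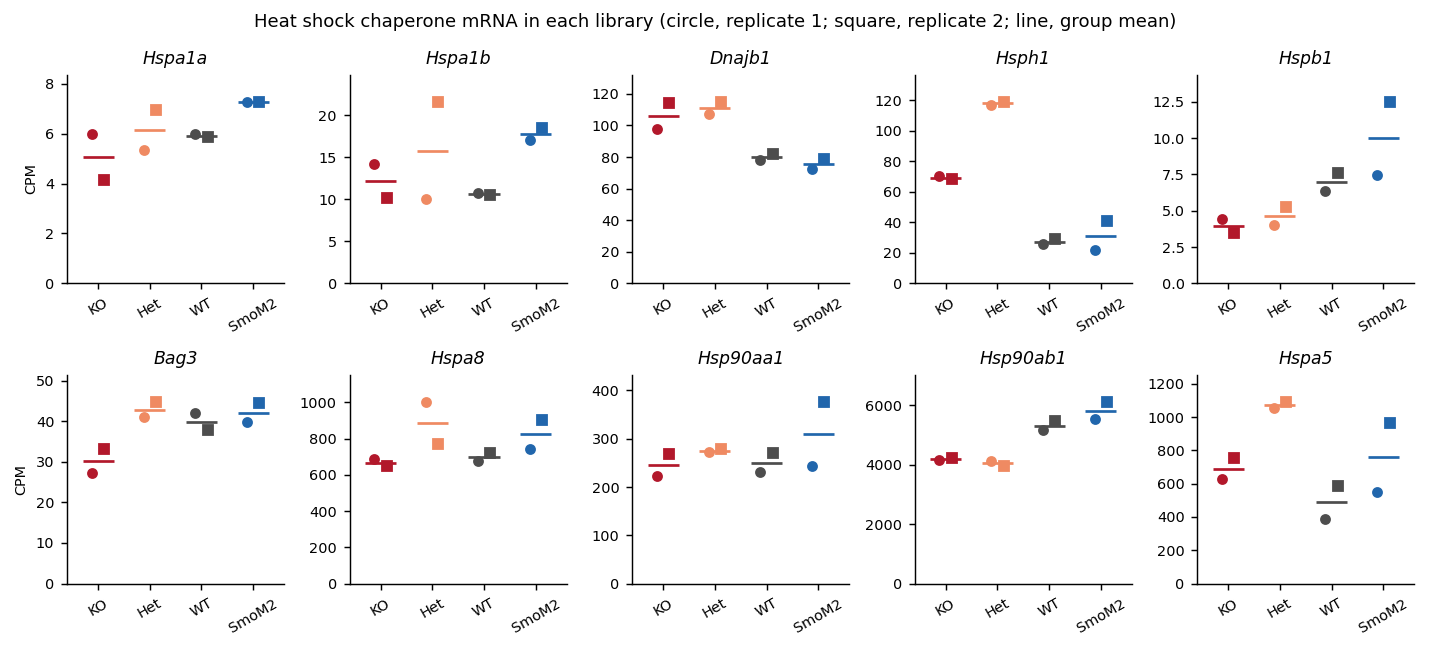
Level (CPM, linear axes starting at 0) of each of the 10 genes in each library, with circles for replicate 1, squares for replicate 2 and lines for the mean of the labelled group. Hsph1 is at 68.1 CPM or more in all KO- and Het-labelled libraries and at 40.6 CPM or less in the others, while Hspa1a stays between 4.14 and 7.28 CPM.

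Hspa8 encodes HSC70, the HSP70 that works in every unstressed cell. Its level was 686 and 649 CPM in KO-labelled, 1002 and 768 CPM in Het-labelled, 676 and 723 CPM in WT-labelled, and 745 and 903 CPM in SmoM2-labelled libraries. The KO- and WT-labelled libraries overlapped, with a difference of -0.07 (95% interval -0.40 to 0.26, adjusted p = 0.775). Both Het-labelled libraries were higher than these, by 0.34 against WT (adjusted p = 0.121), which did not pass. Hspa8 hosts the small nucleolar RNAs Snord14c, Snord14d and Snord14e within its bounds at chr9:40801276-40805202.

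Hsp90ab1 encodes the constitutive HSP90, which folds kinases and hormone receptors and was among the most abundant transcripts. Its level was 4161 and 4219 CPM in KO-labelled, 4140 and 3958 CPM in Het-labelled, 5159 and 5482 CPM in WT-labelled, and 5537 and 6113 CPM in SmoM2-labelled libraries. All KO- and Het-labelled libraries lay below all others, by about the same step. Hsp90ab1 fell in the Het-labelled libraries (4049 ± 129 against 5320.2 ± 229 CPM; log2 change -0.39 ± 0.12 SE, edgeR adjusted p = 0.0306), a call that was lost under 4 of 19 alternatives: with only the 2 groups fitted, and without Het-labelled replicate 1, Het-labelled replicate 2 or WT-labelled replicate 2 (adjusted p 0.0744 to 0.175). In the KO-labelled libraries the difference was -0.34 ± 0.12 SE (adjusted p = 0.055) and passed under 7 of 20 alternatives, DESeq2 among them (adjusted p = 0.0121).

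Hsp90aa1 encodes the stress-inducible form of HSP90. Its level was 223 and 269 CPM in KO-labelled, 272 and 279 CPM in Het-labelled, 231 and 270.1 CPM in WT-labelled, and 243 and 376 CPM in SmoM2-labelled libraries. No comparison of Hsp90aa1 passed, and whether it differed from Hsp90ab1 in its changes was not tested. The KO minus WT difference was -0.03 (95% interval -0.43 to 0.38) and the Het minus WT difference 0.14 (-0.27 to 0.54), with adjusted p of 0.926 and 0.62. The RPKM of Hsp90ab1 was 16.1 to 21.2 times that of Hsp90aa1 in the KO- and Het-labelled libraries, 23.1 to 25.3 times in the WT-labelled libraries and 25.9 times in SmoM2-labelled replicate 1, while SmoM2-labelled replicate 2 fell within the first of these ranges.

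Hspa5 encodes BiP, the HSP70 of the ER and the best known marker of the unfolded protein response. Its level was 627 and 753 CPM in KO-labelled, 1057 and 1089.8 CPM in Het-labelled, 389 and 587 CPM in WT-labelled, and 552 and 964 CPM in SmoM2-labelled libraries. The Het-labelled libraries were the highest and close to each other, whereas the WT- and SmoM2-labelled pairs were spread by 0.59 and 0.80 on the log2 scale. In both of those spread pairs the library with the female pattern was the higher. It was replicate 2 in each pair, so sex pattern and replicate number cannot be told apart there. Hspa5 rose 2.2-fold in the Het-labelled libraries (1073 ± 23.3 against 488 ± 139.8 CPM; log2 change 1.14 ± 0.24 SE, edgeR adjusted p = 0.00739), in every alternative processing as well, between 0.82 and 1.44.

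In the KO-labelled libraries the Hspa5 difference of 0.50 ± 0.24 SE from WT did not pass (adjusted p = 0.157), although the groups did not overlap. It moved to 0.88 with the sex pattern as a covariate (adjusted p = 0.0017) and to 0.52 with the replicate number as a block (adjusted p = 0.0421). The KO minus Het difference was -0.64 ± 0.24 SE (adjusted p = 0.116) and turned to 0.06 with the sex covariate (adjusted p = 0.851). That covariate rests on the WT- and SmoM2-labelled libraries alone, since the KO- and Het-labelled groups each had a single pattern. Within the WT- and SmoM2-labelled pairs the sex pattern coincides with the replicate number. In RefSeq the end of Hspa5, chr2:34772090-34776529, overlaps the bounds of Rabepk, which begin at 34774609, and since the strand setting of the counting is not given in the sources used here, reads of the shared stretch cannot be told apart.

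Counted by comparison, 2 of the 10 members rose and 0 fell in the KO-labelled against the WT-labelled libraries, where 11.6% of the 13459 tested genes rose and 11.4% fell. In the Het-labelled against the WT-labelled libraries 3 rose and 1 fell, where 13.1% of all tested genes rose and 12.2% fell. For so few genes, none of these counts of rises or falls is far from its background share, the 3 rises in Het included, and the counts were not tested. The median log2 change of the members was -0.05 for KO and 0.24 for Het, against 0.03 and -0.02 over all tested genes. Both comparisons use the same WT-labelled libraries, so they are given side by side and not as independent evidence of each other. With the Het-labelled group left out of the model, Hsph1 alone was called in the KO-labelled libraries, where 1195 of all tested genes rose and 1467 fell. With gene length trends removed 1 member rose and 3 fell there, where 1042 of all tested genes rose and 1059 fell.

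Against the WT-labelled libraries, 0 of 10 members passed in the SmoM2-labelled ones in the main edgeR model, where 0.156% of all tested genes rose and 0.0669% fell. DESeq2 called 0 as well, 2 members (Hspa1b and Hspa5) had an unadjusted p under 0.05 with edgeR, and 9 of 10 differences were positive with a median of 0.27, against 0 over all genes. Hspa5 passed there when no low-count filter was used (0.64, adjusted p = 0.000674), and its main difference of 0.63 moved between 0.19 and 0.99 as single libraries were left out, low without WT-labelled replicate 1 or SmoM2-labelled replicate 2. Between the KO- and Het-labelled libraries 0 members rose and 1 fell, where 4.33% of all tested genes were higher in KO and 5.10% lower, and the member median was -0.32 against 0.02. That split of all genes, 583 higher and 686 lower, depended on the scaling: it was 938 and 511 with library totals implied by the RPKM values, and 515 and 929 with DESeq2. Over the 4 groups together, 5 of 10 members differed, namely Hsph1, Hsp90ab1, Dnajb1, Hspa5 and Hspb1, where 41.0% of all tested genes did.

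**Figure D3:**
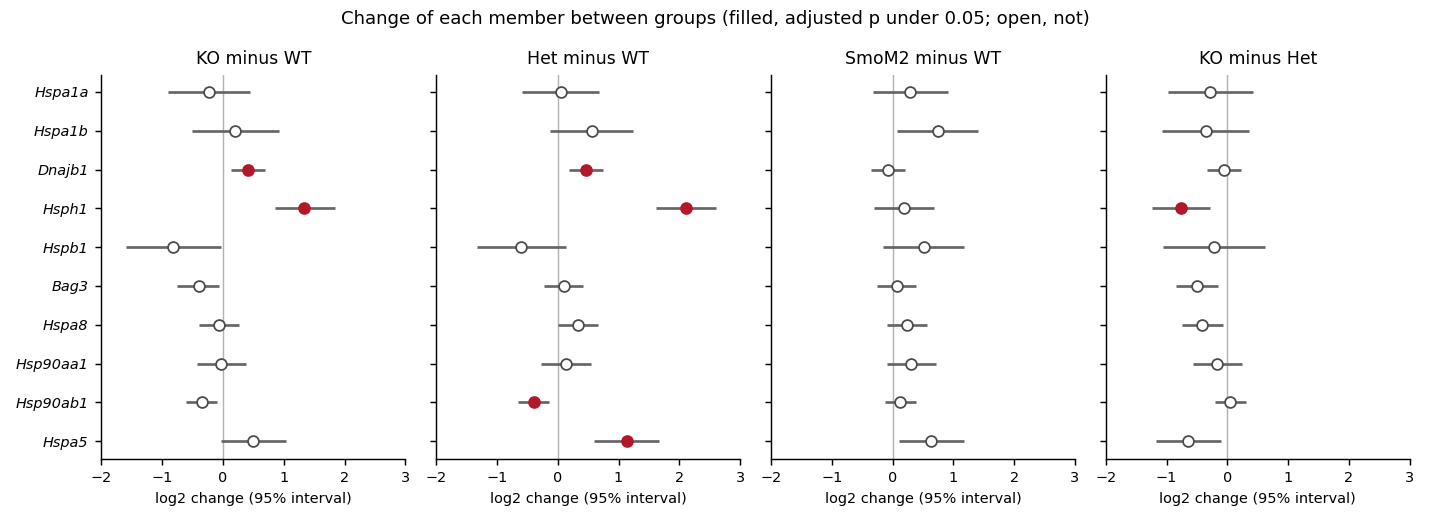
Log2 change of each of the 10 genes in 4 comparisons of labelled groups, with bars for the 95% interval and filled points for an adjusted p under 0.05. Hsph1 lies at 1.34 in KO against WT and at 2.11 in Het against WT, and no point is filled in SmoM2 against WT.

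The factor that drives the cytosolic response was measured as mRNA. Hsf1, the master heat shock factor, was at 90.6 and 69.4 CPM in KO-labelled, 126 and 132 CPM in Het-labelled, 60.9 and 60.3 CPM in WT-labelled, and 59.5 and 61.6 CPM in SmoM2-labelled libraries. Like Hsph1 it was highest in the Het-labelled libraries, where it rose by 1.09 ± 0.14 SE on the log2 scale against WT (edgeR adjusted p = 0.00051), and it was lower in the KO- than in the Het-labelled libraries (-0.69, adjusted p = 0.0158). The call in Het against WT held in every alternative run, whereas that in KO against Het was lost with the sex covariate and without KO-labelled replicate 2, Het-labelled replicate 1 or Het-labelled replicate 2. The KO minus WT difference of Hsf1 was 0.40 (adjusted p = 0.0611). Hsf2, a relative active in development, differed by 0.19 in KO (adjusted p = 0.458) and 0.05 in Het (adjusted p = 0.867). HSF1 is governed mainly by the state of its protein, which mRNA does not report.

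Other cytosolic chaperones and co-chaperones were taken as a list of 32 genes, of which 30 could be tested. In the KO-labelled libraries 11 rose and 1 fell, where 11.6% of all tested genes rose and 11.4% fell. The median log2 change of the list was 0.35 there, against 0.03 over all tested genes. In the Het-labelled libraries 8 rose and 3 fell, where 13.1% of all tested genes rose and 12.2% fell. The median there was 0.01, against -0.02 over all tested genes. Those that rose included helpers of HSP90. Chordc1 went from 20.4 ± 2.23 CPM in WT to 39.2 ± 1.24 in KO and 41.7 ± 1.1 in Het. Ahsa1, which stimulates the ATPase of HSP90, went from 77.2 ± 0.897 CPM in WT to 135 ± 5.68 in KO and 125 ± 1.71 in Het. Fkbp4, a co-chaperone of HSP90 in hormone receptor complexes, was at 323 ± 66.8 CPM in WT, 508 ± 5.46 in KO and 511 ± 5.32 in Het. All 3 of these genes were called higher in both groups. Dnajb5 and Hspa2 rose in Het as well, by 0.86 and 0.74 on the log2 scale, and were not called in KO. Hspa4l, a relative of Hsph1 in the HSP110 family, moved the other way: it fell from 39.6 ± 2.68 CPM to 16.2 ± 0.116 in KO and 23.3 ± 2.73 in Het. In the SmoM2-labelled libraries Bag2 rose (0.91, adjusted p = 0.035), the only gene of the list called there, and the count was 0 with only the 2 groups fitted or without any single KO-, WT- or SmoM2-labelled library.

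The count of 11 in the KO-labelled libraries was unsteady: it was 3 without KO-labelled replicate 1, 7 without KO-labelled replicate 2, 4 without WT-labelled replicate 1, 6 without WT-labelled replicate 2 or without either Het-labelled library or the whole Het-labelled group, and 5 with gene length and GC trends removed. The Het count of 8 was 4 without either Het-labelled library and 5 without WT-labelled replicate 2. In these cases the median of the KO list was between 0.18 and 0.35. Hspb8, a small heat shock protein, fell close to the limit of detection in the Het-labelled libraries, where its mean was 0.0849 CPM against 1.18 CPM in WT, and no fold is given for it.

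In the ER list of 25 genes, which did not include Hspa5, 9 rose and 0 fell in the Het-labelled libraries with a median of 0.50, and 4 rose and 0 fell in the KO-labelled libraries with a median of 0.27. Over all tested genes 13.1% rose and 12.2% fell in Het, with a median of -0.02. In KO 11.6% of them rose and 11.4% fell, with a median of 0.03. Sdf2l1, an ER chaperone cofactor, was at 43 and 49.6 CPM in KO-labelled, 65 and 74.2 CPM in Het-labelled, 10.9 and 22 CPM in WT-labelled, and 15 and 30.9 CPM in SmoM2-labelled libraries, and rose by 1.5 in KO and 2.09 in Het. Xbp1, which encodes a transcription factor of the unfolded protein response, rose by 1.16 in KO (adjusted p = 0.0019) and by 1.74 in Het (adjusted p = 0.000139). The other genes called in KO were Ddit3, which encodes CHOP, and Creld2, an ER chaperone induced by stress. The Het count was 3 or 4 without either Het-labelled library and 3 without WT-labelled replicate 1. The KO count was 2 without KO-labelled replicate 1 or WT-labelled replicate 1, 7 without WT-labelled replicate 2, 8 with the replicate block, 9 with no filter, 2 with the length trend removed and 14 with the sex covariate. The KO median was 0.03 without WT-labelled replicate 1, where that of all genes was 0.04, 0.15 without KO-labelled replicate 2, 0.45 without WT-labelled replicate 2 and 0.50 with the sex covariate. In the SmoM2-labelled libraries the median of the list was 0.30. In the main edgeR model 0 genes of the list were called there, with 5 when no filter was used and 1 with the sex covariate.

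Of all tested genes outside the member list, the one whose log2 CPM followed Hspa5 most closely over the 8 libraries was Pdia4, an ER disulfide isomerase (Pearson r = 0.982). Pdia4 was at 170 and 192 CPM in KO-labelled, 230 and 234 CPM in Het-labelled, 103 and 161 CPM in WT-labelled, and 153 and 226 CPM in SmoM2-labelled libraries, with the same high library in each spread pair. Hyou1, another ER chaperone, came next at 0.971. The ER stress response element printed above for Hspa5 was found in 6 of the 21 genes of the ER list with a promoter sequence, Calr, Canx, Creld2, Dnajc3, Hsp90b1 and Pdia6, but not in the windows of Pdia4. Hsp90b1, the HSP90 of the ER, was at 471 ± 19.4 CPM in KO, 563 ± 67.2 in Het, 377 ± 141 in WT and 539 ± 135 in SmoM2 (mean ± SD, n = 2 each), and did not pass in Het against WT (0.58, adjusted p = 0.0862).

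**Figure D4:**
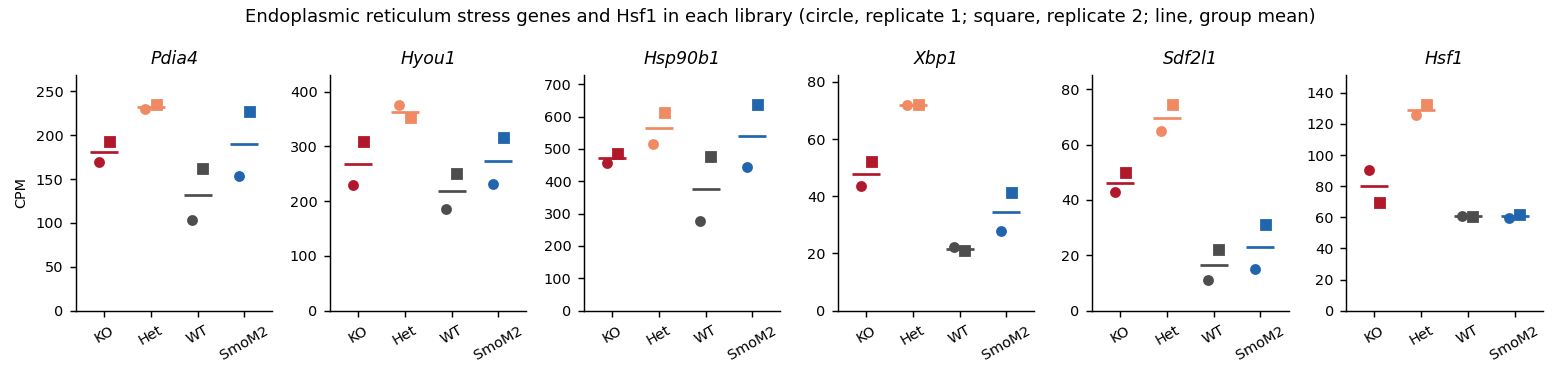
Level (CPM, linear axes starting at 0) of 5 ER genes and of Hsf1 in each library, with circles for replicate 1, squares for replicate 2 and lines for the group mean. Pdia4 is spread within the WT-labelled (103 and 161 CPM) and SmoM2-labelled (153 and 226 CPM) pairs as Hspa5 is, while Xbp1 and Hsf1 are tight in WT.

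The gene most like each of the other members was Nop56 for Hsph1 (r = 0.988), Kdelc1 for Dnajb1 (0.984), 2900097C17Rik for Hsp90ab1 (0.993), Brpf1 for Hspb1 (0.986), Phlpp1 for Bag3 (0.958), Cep152 for Hspa1a (0.953), Ssc5d for Hspa8 (0.936), Osbp2 for Hspa1b (0.927) and Plcxd2 for Hsp90aa1 (0.898). Each r is the highest of 13449 genes compared over 8 libraries that share their groups, depth and sex pattern, so these are descriptions with no p.

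Chaperones of other compartments were counted against the same background shares. Of 8 mitochondrial chaperones and proteases 2 rose in KO, Dnaja3 by 0.96 and Clpp by 0.52 on the log2 scale, where 11.6% of all tested genes rose, and 1 rose in Het, Dnaja3 by 0.94, where 13.1% did. The KO count was 0 without KO-labelled replicate 1, 1 without either WT-labelled library or with the length trend removed, and 4 with the sex covariate, and the Het count was 0 without either Het-labelled library or WT-labelled replicate 2. Lonp1, a mitochondrial protease, was lower in KO than in Het (-0.40, adjusted p = 0.045), and no mitochondrial gene was lower there without any single KO-, Het- or SmoM2-labelled library. Hspd1 and Hspe1, which encode the mitochondrial HSP60 and HSP10 and whose promoters hold the 3-unit heat shock element, were not called. Of the 8 subunits of TRiC, the ring that folds actin and tubulin, 0 were called in KO, and in Het Tcp1 fell by 0.49 and Cct2 fell by 0.41 on the log2 scale, where 12.2% of all tested genes fell. That count of 2 was 0 without Het-labelled replicate 2 or WT-labelled replicate 2, 1 without Het-labelled replicate 1 and 6 with the sex covariate.

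Immediate early genes, which respond within minutes to growth factors and to handling of cells, were counted beside the chaperones. Of 22 such genes 11 rose and 0 fell in the KO-labelled libraries with a median of 0.76, and 15 rose and 2 fell in the Het-labelled libraries with a median of 1.30. Over all tested genes 11.6% rose and 11.4% fell in KO, with a median of 0.03. In Het 13.1% of them rose and 12.2% fell, with a median of -0.02. Fosb was at 265 and 372 CPM in KO-labelled, 668 and 903 CPM in Het-labelled, 155 and 136 CPM in WT-labelled, and 164 and 324 CPM in SmoM2-labelled libraries. Egr3 was at 28.8 and 62.7, 84.3 and 55.4, 6.25 and 5.77, and 9 and 9.13 CPM in the same order. The means of both were highest in the Het-labelled libraries, as was that of Hsph1, and the part of these genes in the chaperone differences was not tested. The KO count was 6 without KO-labelled replicate 2 and 7 without WT-labelled replicate 2.

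**Figure D5:**
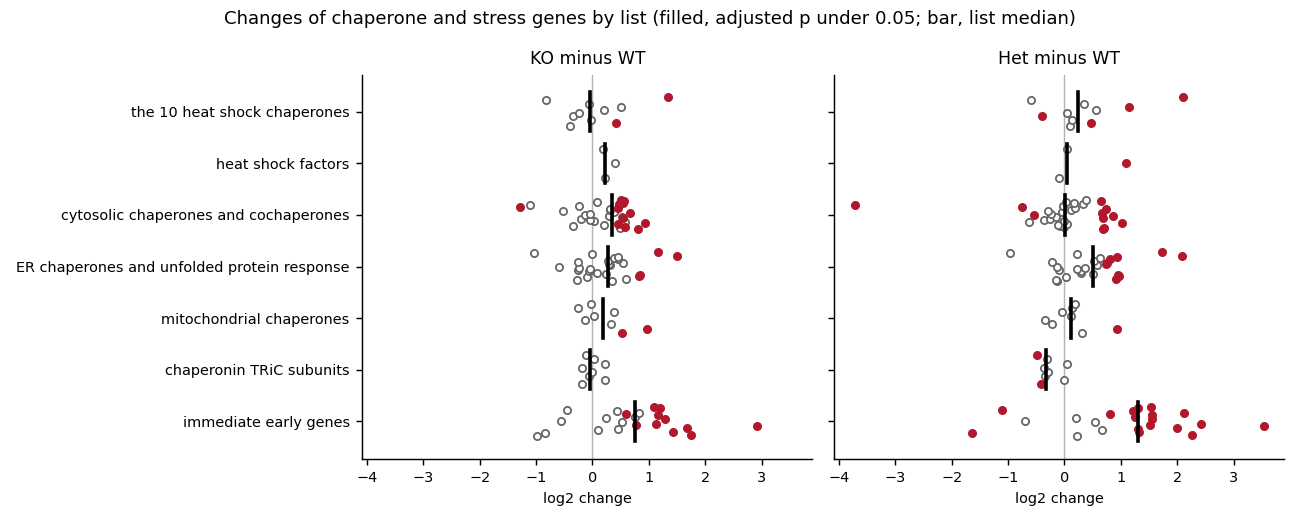
Log2 change of each gene of 7 lists in KO against WT and Het against WT, with a point for each tested gene, filled where the adjusted p was under 0.05, and a bar at the list median. The immediate early genes have medians of 0.76 and 1.30, above the -0.05 and 0.24 of the 10 heat shock chaperones, and the lone point far to the left in Het is Hspb8, which was near the limit of detection.

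Markers of other cell types also moved between the groups. The 7 immune markers summed to 95.1 to 110.5 CPM in KO-labelled and 157 to 176 CPM in Het-labelled libraries, against 39.4 to 49.7 in the WT-labelled and 32 to 39.3 in the SmoM2-labelled ones, with Ptprc at 0 in the KO- and SmoM2-labelled libraries. In the KO- and Het-labelled libraries most of that sum was Cd74. Its level was 83.7 ± 4.11 CPM in KO, 119.8 ± 15 in Het and 13.9 ± 8.56 in WT (mean ± SD, n = 2 each). Cd68 was higher than Cd74 in every WT- and SmoM2-labelled library. Cd68 fell in KO (12.4 ± 2.18 against 24.1 ± 5.14 CPM, edgeR adjusted p = 0.0133) and rose in Het (43 ± 2.48 CPM, edgeR adjusted p = 0.0124), and the macrophage genes Csf1r and C1qa were under 4 CPM on average in each of these groups and were not called. The 8 markers of committed nephron cells summed to 1266 to 1612 CPM in KO-labelled libraries and to 460 to 718 CPM in all others, none at 0. The 6 erythroid markers summed to 9.36 to 32.1 CPM in KO and 11.5 to 18.4 CPM in Het, against 2.31 to 5.21 CPM in the other libraries, with Hemgn at 0 in all but the WT-labelled group. The 7 ureteric markers went from 13.1 to 14.4 CPM in WT down to 2.54 to 5.31 CPM in the KO- and Het-labelled libraries. Wnt9b was at 0 in both of these groups and Aqp2 at 0 in KO. In SmoM2 they went up to 28 to 39.4 CPM, with Aqp2 at 0. Most of the WT and SmoM2 sums was Wnt11, at 9.79 and 7.52 CPM in WT and 24.1 and 34.2 in SmoM2. Ret and Krt8 stayed under 4 CPM in every library and were not called in SmoM2. The 7 endothelial markers summed to 19.2 to 36.8 CPM in KO, 30.7 to 32.9 in Het, 16.5 to 18.3 in WT and 11.8 to 15.1 in SmoM2, most of it Plvap, which rose in KO (edgeR adjusted p = 0.0496) and in Het (0.0129). The other endothelial markers stayed at or under 1.77 CPM in every library. Only Tie1 of these could be tested, at 0.62 in KO and -0.88 in Het, not called. In Het the means of Pecam1, Kdr, Tie1, Emcn and Esam lay below WT and that of Cdh5 above. In KO they went both ways. The 8 stromal markers summed to 76 to 592 CPM in KO, 142 to 310.5 in Het, 323 to 489 in WT and 539 to 666 in SmoM2. Foxd1, the marker of the stromal progenitors, was at 12.8 and 3.7 CPM in KO, 22.5 and 14.6 in Het, 197 and 171 in WT, and 385 and 301 in SmoM2, and fell in KO (edgeR adjusted p = 4.9e-05) and in Het (0.000101). It was the only stromal marker called in either comparison. The median log2 change of the 7 tested was 0.12 in KO and -0.38 in Het. In KO, Col1a1, Col3a1, Dcn and Lum were higher by 0.12 to 0.87 and Pdgfra and Pdgfrb lower, none of them called. The part of these markers in the chaperone differences was not tested.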

How the data were processed

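Raw read counts and RPKM values per gene came from a single deposited table of 24539 gene symbols and 8 libraries, with a gene length; the unit of each column is given per the file headers. The submitters' processing notes name STAR, Subread, featureCounts and the build mm10, without versions, and the strand setting and annotation are not given in the sources used here. Per the labels' protocols, polyadenylated RNA of sorted cells was made into cDNA and then into DNA libraries with a gel size selection. The deposited counts made up 81.1% to 83.3% of the library totals that the authors' RPKM values imply. All columns of per-sample values were used.

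The tests used edgeR 4.0.16 under R 4.3.3 on these counts (filterByExpr, TMM scaling, quasi-likelihood F test), in a single model of all 8 libraries with a mean per group, which leaves 4 residual degrees of freedom. P-values are two-sided, with Benjamini-Hochberg adjustment across the 13459 genes tested, and an adjusted p under 0.05 counts as a call. The biological coefficient of variation was 13.5%. CPM use TMM-scaled totals, and log2 CPM a prior count of 2. With 2 libraries against 2, an exact permutation test cannot go below p = 0.333, so none was run. RPKM values served for levels between genes and for an alternative scaling. The test was checked on simulated data. DESeq2 1.42.0 and further settings are described in the closing section. Figures used matplotlib 3.10.9.

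The members and gene lists were chosen with earlier results of these data known. All members are named. From each other list up to 3 called genes per direction and comparison with the largest change are named, with Hsf1, Hsf2, Smo and the gene most like each member. Creld2 and Fosb in the KO comparison, Hyou1, Hsp90b1, Hspd1 and Hspe1 were chosen after their values were seen. So were Ahsa1 and Fkbp4 in the Het comparison, Gdnf, the single markers of other cell types and the genes named for a promoter match. The value of a single erythroid marker is not reported here.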

Additional observations from a re-analysis of the deposited data

How the results depend on the processing

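Of 780 member changes recomputed under 20 alternatives (18 planned, 2 chosen after seeing the data: length and GC trends removed together, and the Het-labelled group left out), 700 kept their direction and side of the threshold, 31 lost a call, 23 gained one and 26 turned in sign, all of the last among differences that were not called; the cause was not tested. Members called in KO against WT numbered 1 with only the 2 groups compared, 4 with the length trend removed, 4 with length and GC trends removed, 1 without the Het-labelled group, and 1 to 2 with a library left out. In Het against WT they numbered 2 to 4 with a library left out, and in SmoM2 against WT 1 with no low-count filter. In KO against Het they numbered 2 with DESeq2, 0 with RPKM-implied totals, 4 with no filter, 2 with only the 2 groups, 0 with the sex covariate, 0 with the length trend and 0 with length and GC trends removed, and 0 to 1 with a library left out. Over the 4 groups they numbered 8 with no filter and 3 to 6 with a library left out.

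Replicate numbers did not pair the libraries across all groups. Correlations of replicate 1 deviations between groups were -0.061 to 0.1, except WT with SmoM2 at 0.391. In those 2 groups replicate 1 had the male and replicate 2 the female pattern. Replicate number and sex pattern therefore cannot be told apart there. With the replicate number as a block, 2 members were called in KO against Het, and Hspa5 passed in KO against WT (0.52) and in KO against Het (-0.65); the block moved the count of all genes in SmoM2 against WT from 30 to 54.

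Signs turned as follows. With the sex covariate, Hspa8 was 0.03 and Hsp90aa1 0.19 in KO against WT, Hsp90aa1 was -0.08 in Het against WT, and in KO against Het Hspa5 was 0.06, Hsp90aa1 0.26, Hspb1 0.29 and Dnajb1 0.03. With RPKM-implied totals Hsp90aa1 was 0.03 in KO against WT and Dnajb1 0.01 in KO against Het. With the pair summed, Hspa1a and Hspa1b gave 0.06 in KO against WT. Hsp90ab1 was -0.01 in KO against Het with the length trend and -0.01 with length and GC trends removed, under which Hspa1a was -0.29 and Bag3 -0.14 in Het against WT. With a library left out, in KO against WT Hspa1a ran from -0.52 to 0.01, Hspa1b ran from -0.05 to 0.41, Hsp90aa1 ran from -0.18 to 0.1. In Het against WT Hspa1a ran from -0.16 to 0.2, Hspa1b ran from -0.1 to 0.99, Bag3 ran from -0.0036 to 0.18. In SmoM2 against WT Hsp90aa1 ran from -0.04 to 0.6, Hsph1 ran from -0.32 to 0.58. In KO against Het Hspa1b ran from -0.83 to 0.26, Hsp90ab1 ran from -0.0022 to 0.08, Dnajb1 ran from -0.19 to 0.04.

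Beside the member counts above, all genes called in KO against WT numbered 2612 with only the 2 groups compared and 2662 without the Het-labelled group. They numbered 2101 with the length trend removed and 2158 with length and GC trends removed. In KO against Het they numbered 1444 with DESeq2, 1449 with RPKM-implied totals, 1374 with only the 2 groups and 1117 with the sex covariate. Over the 4 groups they numbered 6789 with no filter. Some counts of all genes moved by over 1.5 times. KO against WT gave 3100, and 1304 without KO-labelled replicate 1, 2038 and 1955 without WT-labelled replicate 1 or 2. Het against WT gave 3403, and 1468, 1401 and 2089 without Het-labelled replicate 1, 2 or WT-labelled replicate 2. SmoM2 against WT gave 79 with DESeq2, 356 with no filter, 8 with only the 2 groups, 54 with the sex covariate, 19 with length and GC trends removed, and 8 to 81 with a library left out. KO against Het gave 1269, and 2217 with no filter, 613 and 337 with length, or length and GC, trends removed, and 36 to 1472 with a library left out, lowest without Het-labelled replicate 1. Over the 4 groups 5515 genes differed, and 3656 without Het-labelled replicate 1. Depth was lowest in the KO-labelled libraries, where 1 count equals 0.218 to 0.221 CPM, which limits Hspa1a, Hspa1b and Hspb1.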
